A study of Mus musculus with 12 samples.

Results

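Cytokine receptors without kinase activity of their own signal through JAK kinases and STAT transcription factors, and 10 genes of that system are described here in mouse cytotoxic T lymphocytes (CTL). They are the kinases Jak1 and Jak3, the transcription factors Stat3, Stat4, Stat5a and Stat5b, the feedback inhibitors Socs1, Socs3 and Cish, and the kinase Pim1. The genes were taken by symbol from an RNA sequencing table, and all 10 were among its 13283 genes. CTL were grown from lymph nodes or spleens of female GzmB cre+ control mice (WT) or of female FOXO1-GFPfl/fl GzmB cre+ mice (FOXO1-GFP KO). Both genotypes carried the Cre, which the granzyme B promoter drives in activated T cells, so deletion of Foxo1 followed activation and was not present in the naive cell. Cells were activated for 48 h with antibodies to CD3 and CD28 in 20 ng/mL of IL-2 and 2 ng/mL of IL-12. They were expanded in the same cytokines, and then held in both for 24 h with vehicle or with 10 µM IC87114 (PI3Kdi). This inhibitor blocks the p110δ catalytic subunit of PI3K. The medium, with the same additions, was renewed 2 h before harvest. CTL were sorted as live CD8+ cells, and FOXO1-GFP KO CTL also as GFP-negative cells. The 4 groups, WT, WT+PI3Kdi, FOXO1-GFP KO and FOXO1-GFP KO+PI3Kdi, had 3 libraries each. The labels call these biological replicates without saying whether each came from a separate mouse, and p-values measure the spread between these libraries.

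IL-2 signals through JAK1 and JAK3 mainly to STAT5, and IL-12 signals through JAK2 and TYK2 to STAT4, so CTL held in both cytokines receive both inputs. Phosphorylated STAT dimers enter the nucleus and induce, among other genes, Cish and the SOCS genes, whose proteins bind receptors or JAKs and dampen the signal, and Pim1, which encodes a serine/threonine kinase that promotes growth and survival. FOXO1 is a transcription factor that AKT, acting downstream of PI3K, keeps out of the nucleus. Messenger RNA abundance was measured here, not phosphorylation, so the values give the supply of transcripts and not pathway activity.

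Of the 10 genes, Stat4, the transcription factor downstream of IL-12, differed most. In CTL given PI3Kdi its mRNA in FOXO1-GFP KO was 0.514 times that in WT, and it was the only member past the threshold of an adjusted p under 0.05 and a fold change over 1.5 in any comparison. PI3Kdi left Stat4 at 1.41 times its vehicle level among WT CTL and at 1.02 times that level among FOXO1-GFP KO CTL. Neither of these responses passed that threshold, nor did the difference between them. The mRNA of both SOCS genes was higher with PI3Kdi in all 6 pairs of vehicle and inhibitor libraries, and that of Cish lower in all 6, each by less than 1.5-fold on average. These were 3 of 10 members, where 23.2% of all genes had 1 direction in all 6 pairs. For Jak1, Jak3, Stat3, Stat5a and Stat5b no comparison passed the threshold.

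Promoter sequence is shown for Stat4, whose mRNA differed between genotypes, and for Socs3 and Cish, the only members whose promoter windows held a letter match to a STAT motif. The windows were RefSeq promoters on GRCm38.p6 running from 250 bases before to 50 bases after a start site, and all 10 members matched to 14 windows. The STAT motif was TTCNNNGAA, which reads the same on both strands, and the forkhead motif was GTAAACA or its reverse complement. The 250 bases before the first Stat4 start (chr1:51986898-51987147, plus strand) held neither. The stretch from Socs3 (chr11:117969452-117969616, minus strand) lie upstream of the RefSeq start, and in GENCODE within an intron of a longer Socs3 transcript. The 30 bases from Cish (chr9:107296654-107296683, plus strand) span the RefSeq start, and in GENCODE lie in the first exon of a longer transcript. Capitals mark the motif.
Stat4: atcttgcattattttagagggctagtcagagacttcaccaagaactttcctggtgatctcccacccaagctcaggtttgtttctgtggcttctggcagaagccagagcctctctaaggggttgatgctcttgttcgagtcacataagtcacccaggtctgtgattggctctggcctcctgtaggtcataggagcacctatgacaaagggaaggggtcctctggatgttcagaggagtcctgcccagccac
Socs3: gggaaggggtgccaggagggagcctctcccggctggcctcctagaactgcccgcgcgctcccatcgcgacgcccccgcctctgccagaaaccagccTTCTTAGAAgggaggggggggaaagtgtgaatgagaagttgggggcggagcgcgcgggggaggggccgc
Cish: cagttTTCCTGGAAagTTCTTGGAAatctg
The Socs3 match began at position -154 from the start site, and Cish held 2 matches side by side. Among all 32851 promoter windows of the table, 8.30% held TTCNNNGAA and 3.65% held the forkhead motif. The forkhead motif occurred in 1 member, at position -70 from the second start of Pim1. A match is a match of letters only, and a window without one says nothing about binding elsewhere.

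Depths recovered from the FPKM ranged from 12863640 to 48013581 reads, and each member had between 428 and 32521 estimated reads in a library. These depths carry the authors' scaling between libraries, so they are not raw read counts. Recovered depths were larger in WT libraries (25132150 to 48013581 reads) than in WT+PI3Kdi libraries (15233027 to 19046511 reads). The part of this difference in the PI3Kdi comparison in WT was not tested. As a check of the labels, Foxo1 was at 5.77 to 10.46 FPKM (fragments per kilobase of exon, scaled to library size) in the 6 WT libraries and at 0.58 to 1.75 FPKM in the 6 FOXO1-GFP KO libraries. Cd8a, a defining gene of the sorted cells, was at 139.05 to 253.21 FPKM and Cd4 at 0.09 to 0.95 FPKM. The 3 of 8 B cell markers in the table summed to between 11.36 and 19.49 FPKM in WT libraries and to between 4.31 and 6.88 FPKM in FOXO1-GFP KO libraries, mainly through Ighm. Cd79a and Ms4a1 were not analysed here. In these bulk libraries, fewer cells of a type and less mRNA per cell cannot be told apart.

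Per kilobase of exon, the members spanned more than an order of magnitude, and their order was nearly the same in the 4 groups. Cish was the highest on the FPKM scale, at 102.44 ± 3.32 FPKM in WT (SD, n = 3), followed by Pim1 at 75.08 ± 11.04 and Jak1 at 67.62 ± 18.08. Socs1 (40.26 ± 10.69) and Jak3 (38.08 ± 4.22) came next in WT, then Stat3 (22.06 ± 5.24), Stat5b (13.82 ± 2.90), Stat4 (12.08 ± 1.23) and Socs3 (10.51 ± 1.41), and Stat5a (5.80 ± 0.52) was the lowest. The WT libraries of Pim1 and Jak1 overlapped, as did those of Socs1 and Jak3, and those of each neighbour in the run from Stat5b through Stat4 to Socs3. Stat4 moved in this order, ranking 8 among WT means, 7 among WT+PI3Kdi means and 9 in both FOXO1-GFP KO groups. The ranges of Cish and Pim1 were apart without PI3Kdi and overlapped with it in both genotypes.

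**Figure D1:**
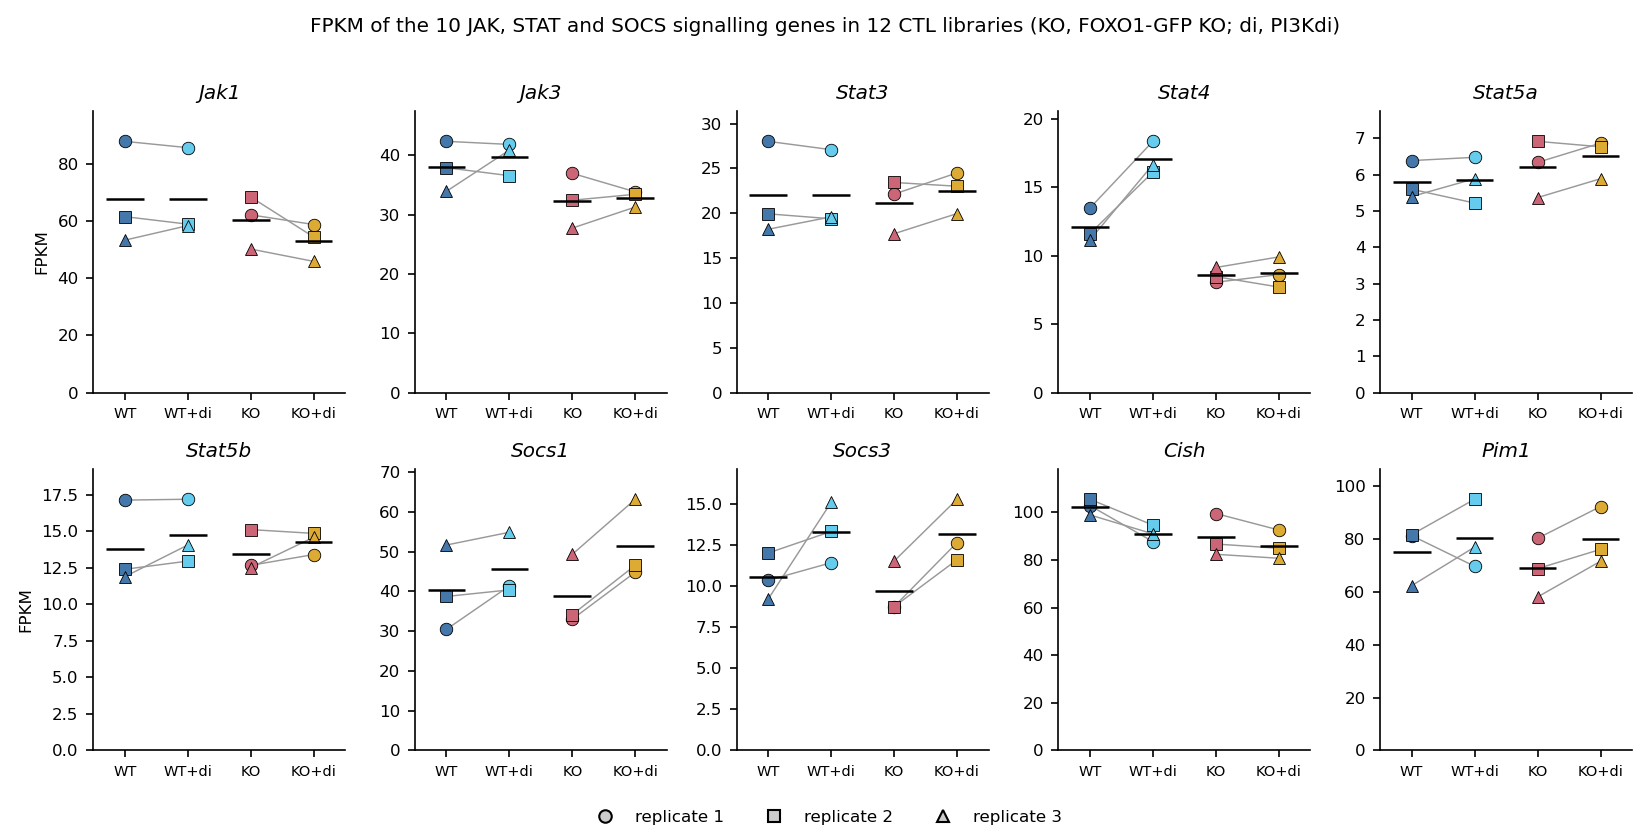
FPKM of each member in every library (points, shaped by replicate number, with a bar at the mean of 3 libraries and lines joining vehicle and PI3Kdi libraries of the same genotype and number; linear axes from 0). All 6 FOXO1-GFP KO libraries of Stat4, at 7.71 to 9.91 FPKM, sit below all 6 WT libraries, while in Jak1 and Stat3 both libraries of WT replicate 1 stand above the others.

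Vehicle and PI3Kdi libraries with the same number deviated together within each genotype, which shaped the values of many members but not of all. In Stat3, 93.5% of the variance of log2 FPKM over the 12 libraries lay between such pairs inside a genotype and 2.78% between the 4 groups. The share between pairs was 82.1% in Stat5b, 71.2% in Jak1, 67.9% in Stat5a, 65.6% in Socs1 and 62.0% in Pim1. Stat4 stood at the other end, with 93.3% of its variance between groups and 5.58% between pairs. Cish, Socs3 and Jak3 had 60.4%, 58.6% and 55.1% between groups, and 36.8%, 27.9% and 30.3% between pairs. Because of this pairing, each limma comparison is given both without a block and with a replicate block within genotype, a random term that pairs the libraries. Calls used p-values adjusted over all 13283 genes in both.

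Jak1 (chr4:101152367-101265282, minus strand), the kinase shared by the IL-2 and many other receptors, was at 87.94, 61.58 and 53.33 FPKM in WT replicates 1 to 3 and at 85.73, 58.95 and 58.42 FPKM in WT+PI3Kdi. The knockout replicates were at 62.21, 68.47 and 50.24 FPKM with vehicle and at 58.82, 54.46 and 45.92 FPKM with PI3Kdi. Replicate 1 of WT was high with and without PI3Kdi, and the 4 groups overlapped. PI3Kdi minus vehicle came to 0.01 on the log2 scale for WT and to -0.18 for FOXO1-GFP KO, where all 3 pairs were lower (adjusted p = 0.187 with the replicate block, 0.933 without). FOXO1-GFP KO minus WT, averaged over PI3Kdi, was -0.24 on the log2 scale (95% interval -0.56 to 0.08 without the block, -0.60 to 0.12 with it).

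Jak3 (chr8:71676296-71690575, plus strand) encodes the kinase bound to the common gamma chain of the IL-2 receptor. Its mRNA was at 42.37, 37.92 and 33.94 FPKM in WT and 41.85, 36.58 and 40.90 FPKM in WT+PI3Kdi, against 36.97, 32.44 and 27.74 FPKM in FOXO1-GFP KO with vehicle and 33.85, 33.44 and 31.29 FPKM with PI3Kdi. With PI3Kdi every FOXO1-GFP KO library was below every WT library, and without it the groups overlapped. Groups without overlap were found for 2 of the 10 members in the comparison with PI3Kdi, Jak3 and Stat4, and for 14.8% of all genes. The mean difference of FOXO1-GFP KO from WT in Jak3 was -0.26 on the log2 scale and was not called. Without the block its 95% interval was -0.44 to -0.07, with an unadjusted p of 0.0115 from limma and an adjusted p of 0.161. With the block the interval was -0.55 to 0.04, the unadjusted p 0.0835 and the adjusted p 0.88. PI3Kdi minus vehicle was 0.05 on the log2 scale averaged over genotypes, with 3 pairs higher and 3 lower.

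Stat4 (chr1:51987148-52107189, plus strand) encodes the STAT that IL-12 activates. It was at 13.48, 11.61 and 11.15 FPKM in WT and at 18.36, 16.11 and 16.66 FPKM in WT+PI3Kdi. The FOXO1-GFP KO libraries were at 8.06, 8.47 and 9.14 FPKM with vehicle and at 8.62, 7.71 and 9.91 FPKM with PI3Kdi. All 3 WT+PI3Kdi libraries lay above all WT libraries, every FOXO1-GFP KO library lay below every WT library, and the FOXO1-GFP KO groups with and without PI3Kdi overlapped. Separation of all 6 FOXO1-GFP KO from all 6 WT libraries was seen in Stat4 alone of the 10 members, and in 2.67% of all genes.

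With PI3Kdi, Stat4 mRNA fell by 0.96 on the log2 scale in FOXO1-GFP KO against WT (SE 0.12, adjusted p = 0.00237, 0.00335 with the block). This was 1 of 10 members called, where 1.45% of all genes were called without the block and 1.18% with it. The call stood in each of the alternatives tried, with adjusted p-values of 0.00133 to 0.0425. Without PI3Kdi the difference was -0.49 (SE 0.12, adjusted p = 0.137, 0.236 with the block) and was not called, as for the other 9 members (0.331% of all genes were called without the block and 0.233% with it; groups without overlap, 1 member, Stat4, and 10.3% of genes). Averaged over PI3Kdi, Stat4 fell by 0.72 (SE 0.08, adjusted p = 0.000698, 0.017 with the block), 1 of 10 members against 2.52% of all genes called without the block and 0.67% with it. The averaged call was lost under the block when the pair of WT replicate 2, WT replicate 3, FOXO1-GFP KO replicate 1 or FOXO1-GFP KO replicate 2 was left out (differences of -0.76, -0.76, -0.70 and -0.68). Some markers of other cells differed between the same groups as Stat4. For Ighm, the WT libraries ran from 7.61 to 10.33 FPKM, WT+PI3Kdi from 11.05 to 12.98, FOXO1-GFP KO from 2.35 to 3.71 and FOXO1-GFP KO+PI3Kdi from 1.64 to 3.15 FPKM. The respective ranges of Cd4 were 0.44 to 0.57, 0.83 to 0.95, 0.09 to 0.44 and 0.12 to 0.51 FPKM. The remaining B cell markers were Igkc, at 0 to 2.84 FPKM and at 0 in all 3 FOXO1-GFP KO+PI3Kdi libraries, and Cd79b, whose mean was 3.61 FPKM in WT and 3.67 with PI3Kdi, against 2.51 and 2.96 FPKM for FOXO1-GFP KO. The 3 CD4 T cell markers measured, Cd4 among them, summed to 6.65 to 8.24 FPKM in WT and to 7.36 to 7.79 with PI3Kdi, and for FOXO1-GFP KO to 6.01 to 7.05 and 4.96 to 7.39 FPKM. The 2 of 3 NK cell markers measured summed to 84.05 to 92.34 FPKM in WT and to 86.04 to 114.17 with PI3Kdi. For FOXO1-GFP KO these sums were higher without PI3Kdi, at 98.64 to 113.81 FPKM, and 93.37 to 107.08 with it. The 4 of 7 myeloid markers measured summed to 17.75 to 23.51 and 17.19 to 28.95 FPKM in WT. Their sums in FOXO1-GFP KO were 16.72 to 22.41 and 22.32 to 27.33 FPKM. The part of other cells in the Stat4 difference was not tested.

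**Figure D2:**
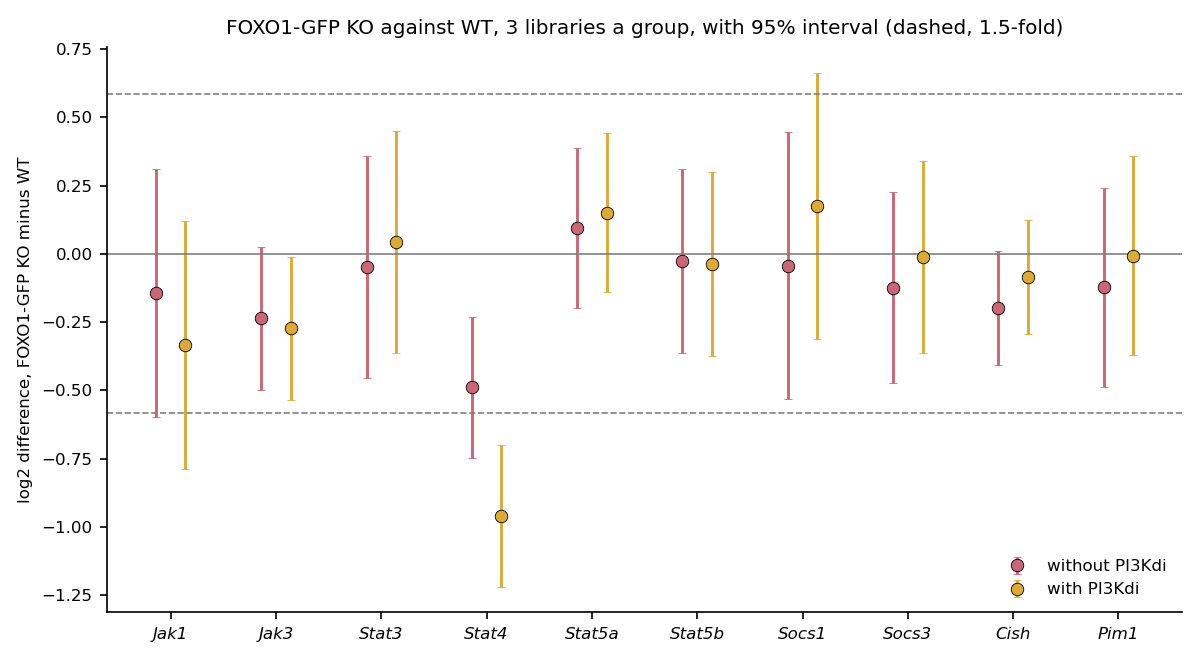
Log2 difference of FOXO1-GFP KO from WT for each member, without PI3Kdi and with it (points, limma estimates without a block from 3 libraries a group; bars, 95% intervals; dashed lines, 1.5-fold). Stat4 is at -0.49 without and -0.96 with PI3Kdi, and the estimates of the other 9 members lie between -0.33 and 0.17.

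In WT the 3 pairs of Stat4 differed by 0.44, 0.47 and 0.58 on the log2 scale with PI3Kdi, and in FOXO1-GFP KO they differed by 0.10, -0.13 and 0.12. The responses of the genotypes did not overlap in Stat4, nor in Jak1 and Cish (3 of 10 members, and 18% of all genes). In 0 of 10 members did all pairs of one genotype move against all pairs of the other, which 3.03% of all genes did. In WT the mean response was 0.50, with an adjusted p of 0.216 without the block and 0.000627 with it, at a fold below the threshold of 1.5. The difference of the responses, FOXO1-GFP KO minus WT, was -0.47 (SE 0.17 without the block and 0.09 with it). Its adjusted p was 1 without the block and 0.0851 with it, and 0 of 10 members passed, as did 0 of all genes without the block and 0.0226% with it. At an unadjusted p under 0.05 there was 1 member in either fit, Stat4, against 1.51% of all genes without the block and 10.8% with it. An exact two-sided permutation test of the 3 responses against 3 gave p = 0.1, the smallest that test can give. Of the 75-base stretches of Stat4 transcripts, 19.5% also occurred in Gm28177, a locus that overlaps Stat4 on the same strand, so the Stat4 level is uncertain over these stretches.

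Stat3 (chr11:100885098-100939540, minus strand), the STAT of the IL-6, IL-10 and IL-21 receptors, was at 28.03, 19.94 and 18.22 FPKM in WT and 27.10, 19.39 and 19.60 FPKM in WT+PI3Kdi. The FOXO1-GFP KO libraries were at 22.14, 23.44 and 17.72 FPKM, and those with PI3Kdi at 24.51, 23.02 and 19.97 FPKM. Only WT replicate 1 stood above the rest, with and without PI3Kdi, and all groups overlapped. Averaged over genotypes, PI3Kdi minus vehicle was 0.05 on the log2 scale (95% interval -0.07 to 0.17 with the block), and FOXO1-GFP KO minus WT was 0.00 (-0.29 to 0.28 without the block).

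Stat5a (chr11:100859351-100885169, plus strand) and Stat5b (chr11:100780731-100850724, minus strand) encode the STATs of the IL-2 receptor and are neighbours, 8626 bp apart. The 12 libraries of Stat5a ran from 5.22 to 6.92 FPKM. Stat5b ran from 11.90 to 17.21 FPKM, with both WT replicate 1 libraries the highest at 17.15 and 17.21 FPKM. Both genes overlapped between all groups. The averaged PI3Kdi response was 0.04 in Stat5a (95% interval -0.06 to 0.15 with the block) and 0.10 in Stat5b, where 5 of 6 pairs were higher (exact two-sided permutation p = 0.0938 over sign flips, adjusted p = 0.192 with the block). Genotype differences averaged over PI3Kdi were 0.12 and -0.03, neither called.

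Stat5a made up 27.1% to 31.2% of the summed Stat5a and Stat5b FPKM in WT, and up to 33.3% in FOXO1-GFP KO. With PI3Kdi this share changed by -0.787 percentage points on average (SD 1.17, 6 pairs; exact two-sided permutation p = 0.219). FOXO1-GFP KO minus WT was 2.27 percentage points over pair means (29.2% against 31.4%; exact permutation p = 0.3, where 0.1 is the smallest possible). The 75-base stretches found in both genes were 5.12% of Stat5a's and 6.99% of Stat5b's, and the last 72 bp of Stat5a overlap Stat3 on the other strand, so levels near these stretches are uncertain. Whether the authors counted by strand is not given in the sources used here.

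Socs3 (chr11:117966079-117970047, minus strand) encodes an inhibitor that binds JAKs and receptors of the IL-6 family. It went with PI3Kdi from 10.34, 12 and 9.20 FPKM to 11.41, 13.31 and 15.08 FPKM in WT, and from 8.74, 8.74 and 11.51 FPKM to 12.64, 11.59 and 15.27 FPKM in FOXO1-GFP KO. All 6 pairs were higher, while only the FOXO1-GFP KO groups did not overlap, 1 of 10 members against 10.1% of all genes. The averaged response was 0.39 on the log2 scale, with an adjusted p of 0.00272 under the block and 0.208 without it. In FOXO1-GFP KO it was 0.45 (adjusted p = 0.017 with the block, 0.775 without), and in WT 0.33 (0.0608 and 0.997), where pair 3 differed by 0.71 and the other pairs by 0.14 and 0.15. Without the pair of WT replicate 3 the WT response was 0.14. In the blocked fit the adjusted p in FOXO1-GFP KO was not under 0.05 once any pair of that genotype was left out.

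Socs1 (chr16:10782240-10785536, minus strand) encodes an inhibitor that blocks JAK catalytic activity and restrains IL-2, IL-12 and interferon signals. The WT libraries were at 30.44, 38.71 and 51.64 FPKM and those with PI3Kdi at 41.35, 40.36 and 54.85 FPKM. In FOXO1-GFP KO, 33.00, 34.15 and 49.32 FPKM became 44.82, 46.56 and 63.15 FPKM. Replicate 3 was the highest in each of the 4 groups, so the groups overlapped although all 6 pairs were higher. The FOXO1-GFP KO pairs differed by 0.44, 0.45 and 0.36 on the log2 scale (adjusted p = 0.0221 with the block, 0.933 without). With the block, that adjusted p was not under 0.05 once any pair of this genotype was left out. The WT pairs differed by 0.44, 0.06 and 0.09 (mean 0.20, adjusted p = 0.244 with the block). The averaged response was 0.31 (adjusted p = 0.00983 with the block, 0.599 without), and the responses of the genotypes differed by 0.22 with an adjusted p of 0.603 in the blocked fit.

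Cish (chr9:107296026-107302784, plus strand) encodes a SOCS family protein induced through STAT5 in T cells. It was at 102.86, 105.52 and 98.93 FPKM in WT and at 87.72, 94.66 and 90.99 FPKM in WT+PI3Kdi, and these 6 libraries did not overlap. Groups of WT without overlap were found for 2 of 10 members, Stat4 and Cish, and for 10.2% of all genes. FOXO1-GFP KO libraries were at 99.52, 86.72 and 82.39 FPKM without and at 92.60, 84.92 and 80.73 FPKM with PI3Kdi. All 6 pairs were lower with PI3Kdi. The response of WT was -0.17 (adjusted p = 0.0431 with the block, 0.9997 without), that of FOXO1-GFP KO -0.05 (0.43 with the block), and the average -0.11 (0.0289 with the block, 0.679 without). Leaving out any pair under the block, the adjusted p of the average in limma was not under 0.05 (lowest over all omissions, 0.05003). FOXO1-GFP KO minus WT was -0.20 without PI3Kdi (95% interval -0.41 to 0.01 without the block). The antisense loci Gm17040 and Gm17041 share 7.93% of the 75-base stretches of Cish transcripts.

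Pim1 (chr17:29490753-29496112, plus strand) was at 81.27, 81.64 and 62.33 FPKM in WT and 69.67, 95.03 and 76.94 FPKM in WT+PI3Kdi. The FOXO1-GFP KO libraries were at 80.23, 68.78 and 58.06 FPKM, and with PI3Kdi at 92.27, 76.06 and 71.57 FPKM. The pair of WT replicate 1 was lower with PI3Kdi and the other 5 pairs were higher. The averaged response of 0.16 was not called (adjusted p = 0.0981 with the block, exact two-sided permutation p = 0.156). The genotype difference was -0.06 (95% interval -0.32 to 0.19 without the block, -0.44 to 0.31 with it).

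**Figure D3:**
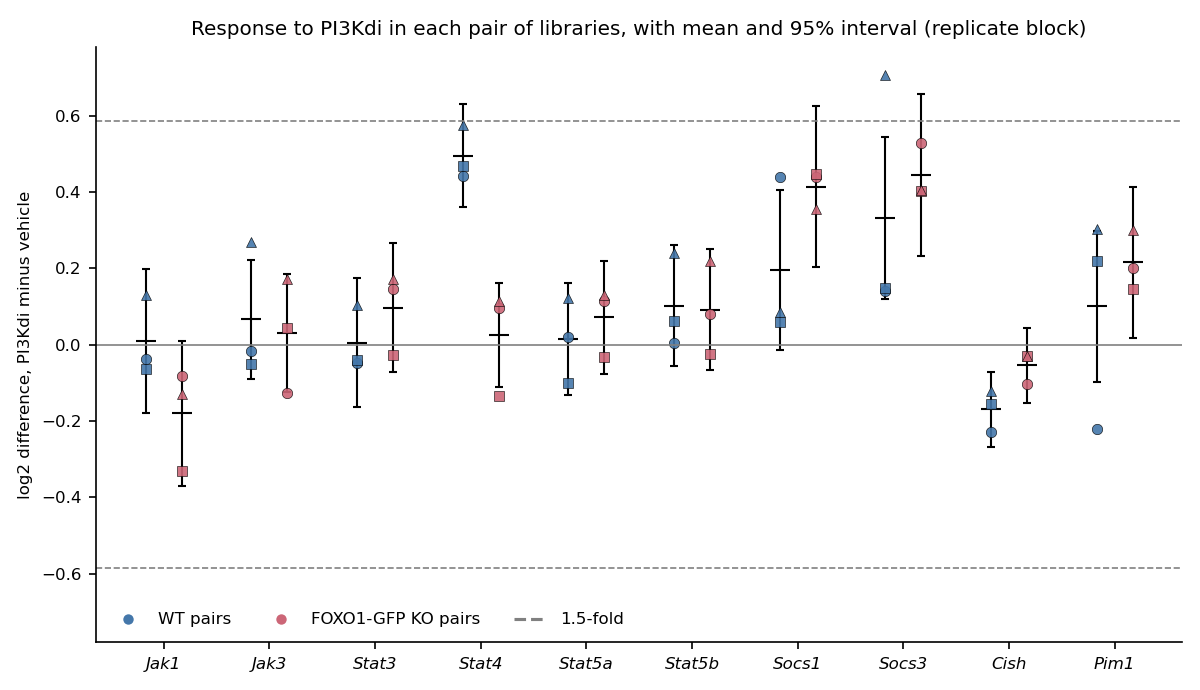
Log2 difference of PI3Kdi from vehicle in each of the 6 pairs of libraries (points, shaped by replicate number as circle 1, square 2 and triangle 3), with the mean and 95% interval of each genotype from the fit with the replicate block. Stat4 responds in the 3 WT pairs at 0.44 to 0.58, Socs1 and Socs3 are above 0 in all pairs, Cish is below 0 in all, and no mean reaches the dashed lines at 1.5-fold.

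Counted together, 0 of 10 members were called for PI3Kdi in WT (0.0979% of all genes without the block, 2.57% with it), 0 in FOXO1-GFP KO (0.0452% and 2.79%), and 0 averaged over genotypes (0.467% and 2.12%), in the limma fits with and without the block. At an unadjusted p under 0.05 the fit without the block had 1, 1 and 2 members, against 5.14%, 5.17% and 9.47% of all genes, and the blocked fit 3, 3 and 5, against 23.7%, 29.5% and 36.4%. By adjusted p alone, at any fold, the blocked fit had 2 members in WT (Stat4 higher and Cish lower, against 7.41% of genes), 2 in FOXO1-GFP KO (Socs1 and Socs3, both higher, against 10.1%) and 4 averaged (Stat4, Socs1, Socs3 and Cish, against 20.9%). When 1 pair at a time was left out, the blocked fit had 1 or 2 such members in WT and 3 averaged. In FOXO1-GFP KO it had 0 when any pair of that genotype was left out, and 2 when a WT pair was. The 3 members with 1 direction in all 6 pairs, Socs1, Socs3 and Cish, each had an exact two-sided permutation p of 0.0313, the smallest that sign flips of 6 pairs allow, and 23.2% of all genes had 1 direction in all pairs. The median response of the members was 0.07 on the log2 scale averaged over genotypes, beside -0.03 for all genes.

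Over the 12 libraries, Pearson's r of log2 FPKM between members was highest for Stat3 with Stat5b (0.82), Jak1 with Stat3 (0.81) and Stat3 with Stat5a (0.80). Jak1 with Jak3 (0.74), Jak3 with Stat4 (0.70), Jak1 with Stat5b (0.68) and Socs1 with Socs3 (0.65) followed. The lowest values were those of Socs1 with Jak1 (-0.75), with Stat3 (-0.58) and with Cish (-0.57). These are descriptions over points that share 4 groups and 6 pairs. Among the 10357 other genes averaging 1 FPKM or more, those whose pattern was most like that of Stat4 were Tecpr1 (r = 0.96), Tmem71 (0.96) and Ssbp2 (0.95). Most like Stat3 were Atp8b4 (0.99), Rbl2 (0.98) and Crbn (0.97). For Socs1 they were Wbp1, Borcs8 and Nfkbil1 (0.98, 0.97 and 0.97), and for Socs3 Drc1, Strada and Mettl27 (0.92, 0.92 and 0.91). Jak3 was most like Cdc42bpg (0.95), Stat5a like Mbtps1 (0.95), Stat5b like Ets1 (0.98), Cish like Bcl10 (0.95) and Pim1 like Zfp628 (0.87).

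The 12 other JAK, STAT, SOCS and PIM genes were all measured, and 1 of them was called, Pim2, which encodes a kinase related to PIM1. In WT, Pim2 was at 32.66 ± 2.73 FPKM with vehicle and 68.81 ± 2.37 with PI3Kdi (SD, n = 3), and the FOXO1-GFP KO means were 14.70 ± 5.39 and 23.34 ± 9.75 FPKM. With PI3Kdi, Pim2 was higher by 1.08 on the log2 scale for WT (adjusted p = 0.000251 with the block, 0.311 without) and by 0.65 for FOXO1-GFP KO (0.006 and 0.924). The latter was 0.33 without FOXO1-GFP KO+PI3Kdi replicate 1, 0.38 without FOXO1-GFP KO replicate 3 and 0.91 without FOXO1-GFP KO replicate 1 or FOXO1-GFP KO+PI3Kdi replicate 3, and 0.60 to 0.71 where whole pairs were left out. Among CTL given PI3Kdi it fell by 1.64 in FOXO1-GFP KO against WT (adjusted p = 0.0137, 0.00425 with the block). The difference of its PI3Kdi responses was -0.43 (adjusted p = 0.353 with the block). Pim1, with differences of 0.10 and 0.22 for PI3Kdi, was not called in these comparisons.

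Of 17 further inhibitors and adaptors, 1 was called, Usp18, which encodes a negative regulator of type I interferon receptors. The WT means of Usp18 were 6.13 ± 0.32 FPKM with vehicle and 5.47 ± 0.17 with PI3Kdi, against FOXO1-GFP KO means of 9.07 ± 0.85 and 11.91 ± 2.00 FPKM. It was higher in FOXO1-GFP KO by 1.097 on the log2 scale with PI3Kdi (adjusted p = 0.00191, 0.00387 with the block). In that comparison 1.45% of all genes were called without the block and 1.18% with it. Among the 17 of 19 JAK-coupled receptor chains measured, 2 were called higher with PI3Kdi under the block in both genotypes and none lower. Of all genes, 2.57% were called in WT and 2.79% in FOXO1-GFP KO under the block. By adjusted p alone in that fit, 5 chains were higher and 1 lower in WT, against 7.41% of all genes. For FOXO1-GFP KO, 7 chains were higher and 0 lower, against 10.1%. Ifngr2, a chain of the interferon gamma receptor, rose by 0.70 on the log2 scale for WT and 1.22 for FOXO1-GFP KO (adjusted p = 0.00275 and 0.000165 with the block), and averaged over genotypes it was called in either fit (0.0263 without the block). Il7r, the IL-7 receptor chain, rose by 1.15 and 0.97 (0.00045 and 0.00185 with the block), and no chain was called between genotypes.

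Of the 8 STAT4 target genes, Ifng, the gene of interferon gamma, was called lower with PI3Kdi and none was called higher. Under the block 2.57% of all genes were called in WT and 2.79% in FOXO1-GFP KO. On the log2 scale Ifng fell by 0.97 for WT and by 0.65 for FOXO1-GFP KO (adjusted p = 0.000442 and 0.00656 with the block), and by 0.81 averaged over genotypes (0.0365 without the block). In WT, Stat4, whose PI3Kdi response was not called, and Ifng differed from vehicle in opposite directions. Of the 8 targets, 6 had a positive difference in WT, and their median was 0.07 on the log2 scale, beside -0.04 for all genes. By adjusted p alone with the block, averaged over genotypes, 3 of the 8 were higher and 1 lower, against 20.9% of all genes in either direction. None of the 12 STAT5 target genes was called in any comparison in either fit. The largest difference among these was Myc in FOXO1-GFP KO against WT with PI3Kdi (0.49, adjusted p = 0.489), followed by Bcl6 without PI3Kdi (0.47, adjusted p = 0.969), which was at most 0.31 FPKM in any library.

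**Figure D4:**
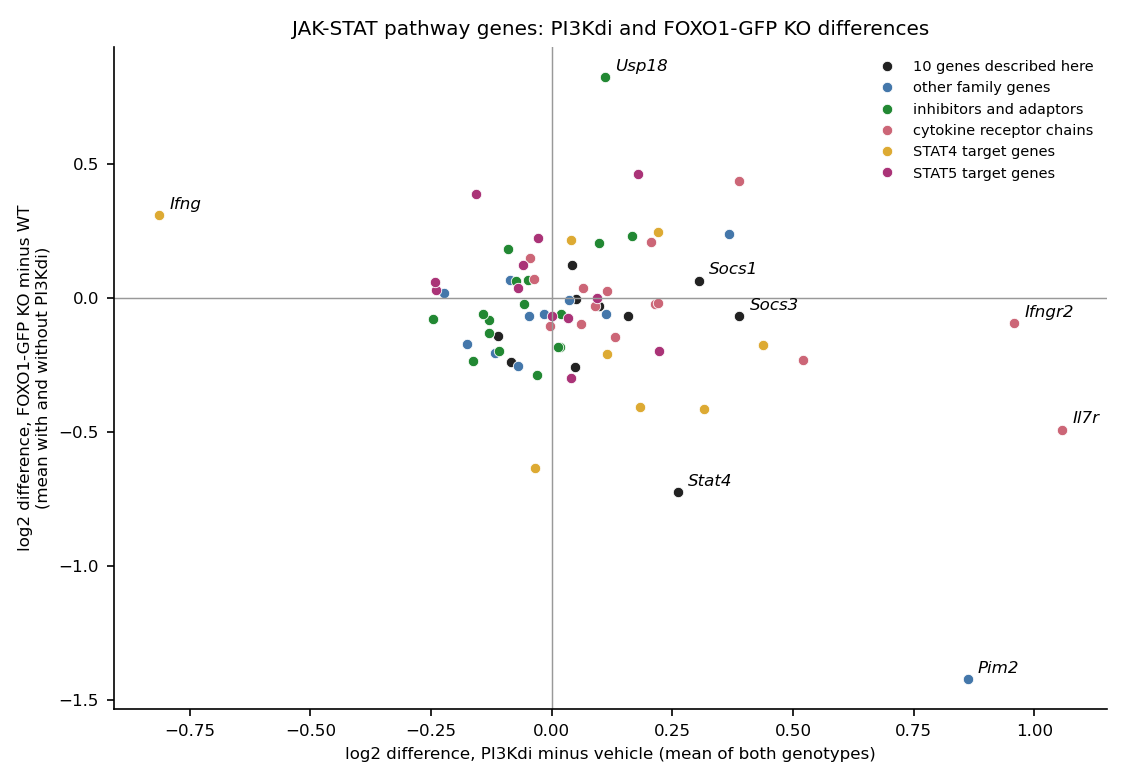
Log2 difference of PI3Kdi from vehicle, averaged over genotypes (horizontal axis), against that of FOXO1-GFP KO from WT, averaged over PI3Kdi (vertical axis), for the 10 members and 5 lists of related genes (1 point a gene, estimates from 12 libraries). Most points lie near 0 on both axes, and Pim2 (0.86, -1.42), Stat4 (0.26, -0.72), Usp18 (0.11, 0.83), Il7r (1.06, -0.49), Ifngr2 (0.96, -0.09) and Ifng (-0.81, 0.31) stand apart.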

How the data were processed

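Messenger RNA of 12 CTL libraries (4 groups of 3) was measured by paired 75-base sequencing from 300 ng of RNA. Per the submitters' processing notes and the study's methods, the authors aligned reads with STAR 2.7.1a to GRCm38.p6, counted them per gene, dropped low genes and scaled by TMM with edgeR, and divided by exon length; the deposited values are FPKM. The table held 13283 genes and 0 further columns of values per sample.

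Members and gene lists were chosen with earlier results of these data known, and they therefore lend one another no independent support. Named genes were the 10 members, Foxo1, called genes of each list or else the 2 with the largest difference, and the 3 genes most like each member. Some genes under this rule are not reported here. Group means of log2(FPKM + 0.1) were fitted in limma 3.58.1 (R 4.3.3) with a mean-variance trend and 7 contrasts, p-values being adjusted by Benjamini-Hochberg over all genes. A gene was called at an adjusted p under 0.05 and a fold change over 1.5. Fold changes are on that log2 scale, which understates changes of low genes. The authors used voom on counts, which was rebuilt here as an alternative: depth was recovered from short genes, whose FPKM must be whole reads, and 98.5 to 99.8% of held-out values were whole within 0.2 of a read, against 40% by chance. Tested on simulated data for PI3Kdi in WT, in which 200 of 13283 genes were shifted by 1 on the log2 scale, 73.5% of these were recovered without and 97.5% with the replicate block.

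Same-numbered vehicle and PI3Kdi libraries deviated from their group means together (correlations of 0.594 to 0.838 over 10371 genes in all 6 pairs), and the numbers were therefore treated as pairs inside each genotype. Across genotypes the same numbers correlated at -0.409 to 0.730. Exact permutation tests flipped the signs of 6 pairs or regrouped 3 against 3. Alternatives were other pseudocounts (1 and 0.01 FPKM), a mean of at least 1 FPKM, equal library medians, voom, the block as random or fixed terms, and leaving out each library or, chosen after seeing the data, each pair, and equal medians with the block. Positions and transcripts were from GENCODE M21 (GRCm38), and promoters from RefSeq (GRCm38.p6).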

Additional observations from a re-analysis of the deposited data

Results flagged for a closer look

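In 2 genes of the pathway lists, and in none of the 10 members, all 3 WT pairs moved one way with PI3Kdi and all 3 FOXO1-GFP KO pairs the other way, as did 3.03% of all genes. These lists held 12, 17, 17, 12 and 8 measured genes, a few of them in more than 1 list. The log2 differences of Usp18 were -0.27, -0.17 and -0.04 in the WT pairs and 0.59, 0.29 and 0.27 in the FOXO1-GFP KO pairs. The difference of its responses was 0.54 (adjusted p = 1 in limma without the block and 0.0864 with it). Il21r, a cytokine receptor chain that signals through JAK1 and JAK3, was at 76.62 ± 0.99 and 67.91 ± 3.76 FPKM in WT without and with PI3Kdi (SD, n = 3), while FOXO1-GFP KO had 77.63 ± 0.83 and 82.40 ± 0.44 FPKM. The difference of its responses was 0.26 (adjusted p = 1 without the block and 0.111 with it). Neither passed the threshold in limma.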

How the results depend on the processing

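The number of members called was 1 under each alternative for FOXO1-GFP KO against WT with PI3Kdi, and 0 under each for the 3 PI3Kdi comparisons, for the genotypes without PI3Kdi and for the difference of responses. For the genotypes averaged over PI3Kdi it ranged from 0 to 1 over omissions, the call of Stat4 being lost only in the blocked fits named in the report, which were chosen after seeing the data. Members with 1 direction in all pairs numbered 3 to 5, with 5 when the pair of FOXO1-GFP KO replicate 2 was left out. The replicate block changed no call of a member.

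Differences near 0 changed sign, and the cause was not tested. The genotype difference of Stat3 was 0.019 with equal library medians, with and without the block. Leaving out libraries or pairs, PI3Kdi in FOXO1-GFP KO ranged from -0.067 to 0.11 in Stat4 and from -0.11 to 0.024 in Cish. The averaged PI3Kdi response ranged from -0.18 to 0.018 in Jak1, -0.0050 to 0.098 in Jak3, -0.028 to 0.14 in Stat3 and -0.0067 to 0.083 in Stat5a. The averaged genotype difference ranged from -0.10 to 0.17 in Stat3, -0.11 to 0.11 in Stat5b, -0.10 to 0.23 in Socs1, -0.19 to 0.0083 in Socs3 and -0.18 to 0.032 in Pim1.

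Among the other named genes, the genotype difference of Pim2 with PI3Kdi (FOXO1-GFP KO against WT) was lost as a call in some omissions. These were WT+PI3Kdi replicate 2 or 3 and FOXO1-GFP KO+PI3Kdi replicate 2 or 3 (adjusted p of 0.0568 to 0.0607). The averaged PI3Kdi responses of Ifngr2 and Ifng were not called in 9 single-library omissions each (adjusted p up to 0.0979 and 0.106).

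Over all genes, the block moved the calls from 13 to 342 for PI3Kdi in WT, 6 to 370 in FOXO1-GFP KO, 62 to 282 averaged, 335 to 89 for the genotypes averaged and 0 to 3 for the difference of responses, where 200 genes had an unadjusted p under 0.05 without the block and 1435 with it. With fixed terms the first 3 were 254, 328 and 265, and voom with the block gave 356, 446 and 429. A pseudocount of 1 FPKM gave 31 and 145 for the averaged PI3Kdi and genotype comparisons, and a mean of at least 1 FPKM gave 36 and 192, and 111 in place of 193 for the genotypes with PI3Kdi. Voom without the block gave 22 for PI3Kdi in WT. Fixed terms could not be fitted for genotype differences. Counting error was not compared with the spread between libraries; the member with the fewest estimated reads in a library had 428.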
